A study of Mus musculus with 101 samples.

Results

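Ahr, Arnt, Ahrr, Cyp1a1, Cyp1b1, Tiparp, Nqo1, Ephx1 and Nfe2l2 are the aryl hydrocarbon receptor, its dimer partner and repressor, and genes of its response to xenobiotics. These 9 genes were chosen because benzo[a]pyrene (BaP) is a ligand of the receptor. The table of 15423 genes holds 8 of them, and 7 passed the filter of the test, a mean normalized count of at least 0.5. Ahrr has no value in the table, so its level is not known here. Cyp1a1 lay below the filter and was compared by permutation tests of its values.

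The receptor encoded by Ahr is held in the cytosol by chaperones until it binds a ligand, after which it enters the nucleus and pairs with the product of Arnt. The pair binds DNA at genes that include Cyp1a1, Cyp1b1, Tiparp and Ahrr, and the products of Tiparp and Ahrr act back on the receptor. CYP1 enzymes and the epoxide hydrolase encoded by Ephx1 act in turn on BaP, while Nqo1 reduces quinones and is a target of both the receptor and NRF2, the product of Nfe2l2.

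RNA was measured in primordial germ cells of 48 female and 53 male mouse embryos of strain OG2 at E13.5. The cells were sorted for EGFP expressed from the Pou5f1 promoter, and each embryo gave 1 library. Dams of the F0 generation received BaP in sesame oil by mouth at a low dose (0.033 mg/kg-day), a mid dose (0.2) or a high dose (2), or sesame oil as vehicle, and the F1, F2 and F3 embryos descend from them. The vehicle groups of F1, F2 and F3 held 5, 6 and 6 embryos of each sex. In F1 the low, mid and high groups held 2, 5 and 5 females and 2, 6 and 8 males. In F2 there were 3 females and 3 males at every dose. In F3 they held 4, 2 and 4 females and 4, 4 and 3 males. Reads could be recovered in 99 libraries, and their sum over the genes of the table, which is not the number of reads sequenced or mapped, ran from 5004382 to 87240533 with a median of 7789673. A count of 3 reads, taken as the floor, came to between 0.0288 and 0.713 normalized counts, counting error only.

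The level of each gene in sorted germ cells without exposure was read in the 17 female and 17 male vehicle embryos, as normalized count divided by kilobases of exon. In females Tiparp had 10.5 ± 3.38 per kb (SD, n = 17), Nfe2l2 10 ± 2.34 and Nqo1 7.95 ± 2.26. Ahr had 0.822 ± 0.230, Arnt 0.861 ± 0.313 and Ephx1 0.783 ± 0.275 per kb. The CYP1 genes were lowest, with 0.300 ± 0.128 for Cyp1b1 and 0.181 ± 0.121 for Cyp1a1. In males Nqo1 led with 10.9 ± 2.42 per kb, before Nfe2l2 with 7.47 ± 1.63 and Tiparp with 4.23 ± 1.22. Ahr had 0.631 ± 0.298, Cyp1b1 0.168 ± 0.098 and Cyp1a1 0.0482 ± 0.063 per kb in males. Cyp1a1 summed to 79 reads over the vehicle females with reads recovered and to 41 over the vehicle males, against 8370 and 5012 reads for Tiparp.

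The first comparison asks which of these genes differ between female and male germ cells of vehicle embryos. Of the 7 genes tested, 4 were higher in females (28.8% of the 13288 genes tested were) and 2 were higher in males (27.9%), at a limma adjusted p under 0.05. In the fits of single generations the number that differed was 1 in F1 (23.8% of all genes), 2 in F2 (41.1%) and 1 in F3 (32.2%).

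Tiparp (chromosome 3, 65528410 to 65555518 of GRCm38, plus strand) ran from 31.0 to 87.0 normalized counts in the 17 vehicle females, with a median of 40.5, and from 10.9 to 33.1 in the 17 vehicle males, with a median of 17.04. Its values were higher in females with little overlap, since 14 females lay above every male and 16 males below every female. The log2 difference, male minus female, was -1.28 (95% interval -1.56 to -1.003), which is a male level 0.412 times the female level (0.340 to 0.499, limma adjusted p = 3.83e-13). It was -1.37 in F1, -1.17 in F2 and -1.30 in F3 (limma adjusted p = 0.000321, 1.36e-06 and 0.000119 in this order). Over all embryos, exposed ones included, each of the 48 females lay above the male median, and 32 of them lay above every male.

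The same direction was found for both CYP1 genes. Cyp1b1 (chromosome 17, 79701537 to 79715061, minus strand) ran from 1.08 to 3.31 normalized counts in vehicle females, with a median of 1.44, and from 0.335 to 2.53 in vehicle males, with a median of 0.798. The groups overlapped, with 11 males below every female and 3 females above every male. The log2 difference was -0.63 (-1.05 to -0.20, fold 0.647, limma adjusted p = 0.00908). It was -0.90 in F2 (limma adjusted p = 0.0102), and -0.56 in F1 and -0.43 in F3, which did not pass. Cyp1a1 (chromosome 9, 57687928 to 57703824, plus strand) ran from 0.108 to 1.11 in vehicle females, with a median of 0.536 and 0 embryos without reads. In vehicle males it ran from 0 to 0.489, with a median of 0, and 9 of 17 had no read. The mean log2 difference was -0.63 (permutation test, p = 0.00028, adjusted p = 0.00616 over 22 tests of this gene). Its size depends on the pseudocount, since it was -1.48 with 0.1 and -0.39 with 1 (adjusted p = 0.00308 and 0.00616), and it cannot be set beside that of Cyp1b1. All of these Cyp1a1 values rest on few reads per library, and the direction was the same in each generation, with -0.48 in F1 (exact permutation test, p = 0.0952), -0.63 in F2 (p = 0.0671) and -0.76 in F3 (p = 0.0195, adjusted p = 0.214).

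Of the receptor and its partner, Ahr differed between the sexes and Arnt did not pass the test. Ahr (chromosome 12, 35497974 to 35535038, minus strand) ran from 2.78 to 8.18 normalized counts in vehicle females, with a median of 4.64, and from 1.40 to 8.12 in vehicle males, with a median of 3.19. The groups overlapped over most of their range, with 1 female above every male and 4 males below every female. The log2 difference was -0.41 (-0.69 to -0.13, fold 0.751, limma adjusted p = 0.00970). The call depends on which libraries are used. It was -0.26 (limma adjusted p = 0.119) without the libraries in which summed erythroid markers exceeded 100 normalized counts, a choice made after the data were seen. Arnt (chromosome 3, 95434388 to 95497240, plus strand) had medians of 6.41 in females and 6.39 in males, from 3.02 to 12.6 and from 5.0 to 10.9. Its log2 difference was 0.05 (-0.25 to 0.35, limma adjusted p = 0.793).

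Nfe2l2 (chromosome 2, 75675513 to 75704641, minus strand) ran from 27.0 to 58.8 normalized counts in vehicle females, with a median of 36.9, and from 15.5 to 39.8 in vehicle males, with a median of 29.3. It was higher in females with overlap, and the log2 difference was -0.43 (-0.68 to -0.19, fold 0.741, limma adjusted p = 0.00205). Both remaining enzymes had the opposite direction. Ephx1 (chromosome 1, 180976210 to 181020904, minus strand) ran from 0.680 to 2.70 in females, with a median of 1.56, and from 0.894 to 4.83 in males, with a median of 3.20. In 12 of 17 males it lay above every female, and the log2 difference was 0.72 (0.29 to 1.15, fold 1.64, limma adjusted p = 0.00334). Nqo1 (chromosome 8, 107388225 to 107403206, minus strand) ran from 6.37 to 19.5 in females, with a median of 12.2, and from 9.85 to 22.2 in males, with a median of 17.2. The groups overlapped, and the log2 difference was 0.45 (0.14 to 0.76, fold 1.37, limma adjusted p = 0.0106). None of Ahr, Nfe2l2, Ephx1 and Nqo1 passed in a single generation, although each had the same direction in F1, F2 and F3. Their log2 differences over the generations were -0.48 to -0.30 for Ahr, -0.72 to -0.18 for Nfe2l2, 0.58 to 0.90 for Ephx1 and 0.42 to 0.47 for Nqo1.

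**Figure D1:**
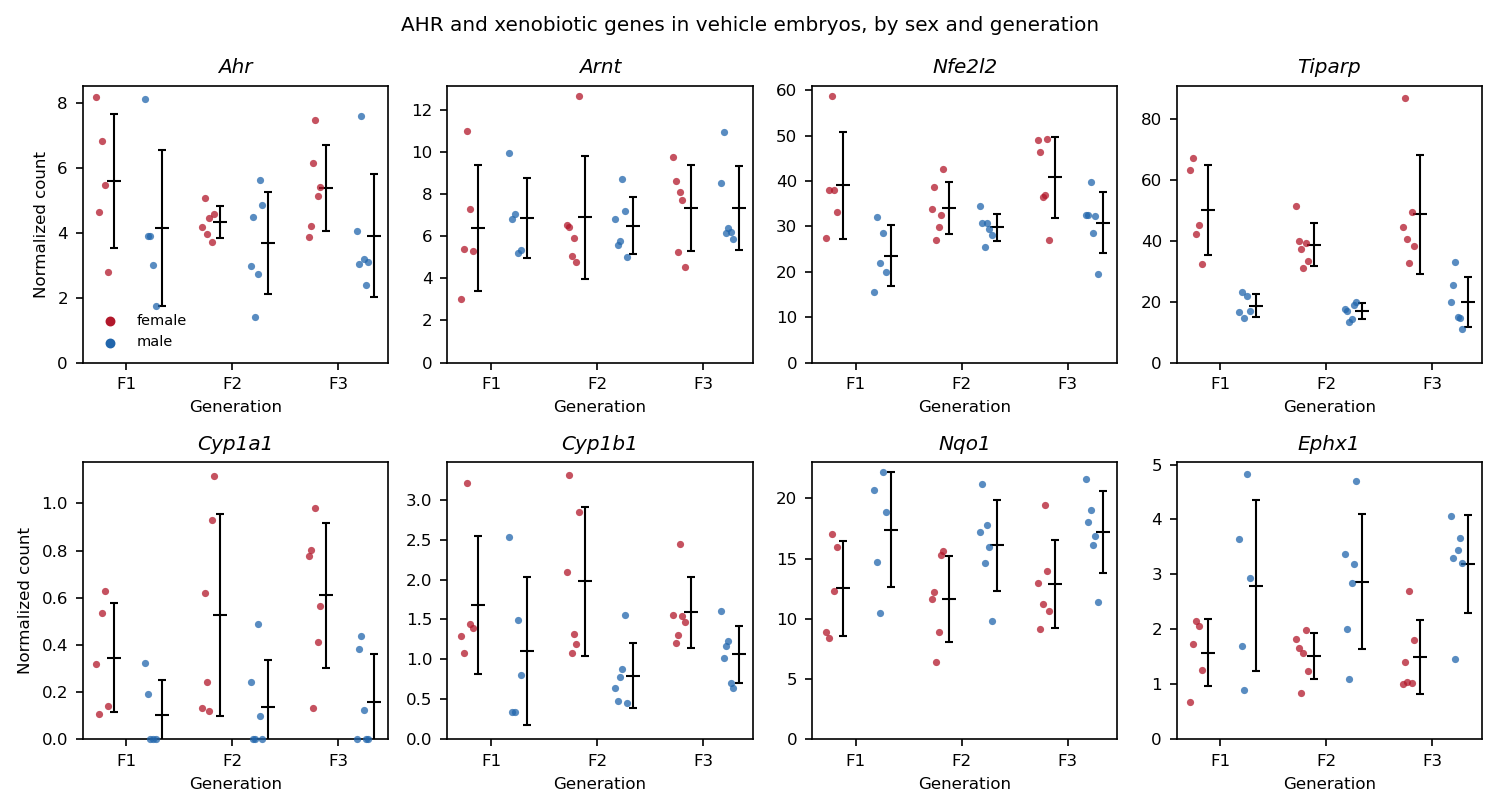
Normalized counts of the 8 genes in vehicle embryos of F1, F2 and F3, females in red and males in blue, with a point per embryo and bars for mean ± SD. Tiparp separates the sexes with little overlap, at medians of 40.5 in females and 17.04 in males over the 3 generations, and 9 of 17 males have no Cyp1a1 read.

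RNA of other cell types was looked for with marker lists, as summed normalized counts. The 8 germ cell markers had a median sum of 5668 in vehicle females and 8199 in vehicle males. Dppa5a (1804 and 4128, mean) and Dppa3 (1612 and 2413) carry much of this sum and its direction. Nanos3 (log2 difference of 0.98) and Pou5f1 (0.81) were also higher in males. Dazl (-0.52), Ddx4 (-0.49) and Kit (-0.60) were lower in males and Sall4 did not pass. The 7 Sertoli markers had a median of 20.55 in females and 240 in males, where the most abundant were Aard (21.1 in females, 123 in males, mean) and Ptgds (0.392 and 122). The defining markers were near 0 in females, with 0.0381 for Sox9 and 0.0103 for Amh, against 5.90 and 2.72 in males. The 10 markers of stroma and mesonephros had medians of 1.96 and 12.9, led in males by Wt1 (5.82) and Gata4 (5.23). The 5 fetal Leydig markers had 3.14 and 5.72, and the 6 of 7 pregranulosa markers with a value had 4.65 and 3.22. The 6 of 7 macrophage markers with a value had 12.1 and 8.83, and the 4 of 6 endothelial ones 33.6 and 25.9, nearly all of it Pecam1 (32.8 and 23.6, mean), which germ cells also express. Erythroid markers had medians of 0.701 and 1.04 and reached 2390 in F3 male vehicle embryo D1388.1. The endothelial list and the erythroid list, with 5 of 7 genes, have too few genes with a value, so they are void as checks for such cells and their sums are used as measured values alone. Whether RNA of such cells contributed to the sex differences of Tiparp, Cyp1b1, Cyp1a1, Ahr, Nfe2l2, Ephx1 or Nqo1 was not tested by sorting, and fewer cells of a type and less RNA per cell cannot be told apart in these libraries.

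Levels of the 7 genes were also compared between the vehicle embryos of the 3 generations. None of the 7 passed the limma F-test (0% of 13288 genes did), and the lowest adjusted p was 0.929. At an unadjusted p under 0.05 there were 0 of the 7 (3.1% of all genes). The 11 libraries of 21247642 reads or more were all of F1, and the F-test was not repeated without them.

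The next comparisons ask whether the genes that respond to the receptor differed in germ cells after exposure. The F1 embryos are those whose dams were dosed, and they were sampled 2 days after the last dose. Over 3 doses, 2 sexes and 7 genes, 0 of 42 F1 comparisons passed a limma adjusted p of 0.05 (0.00122% of all gene and comparison pairs did). At an unadjusted p under 0.05 there was 1 of 42 (3.37% of all pairs). Both edgeR tests on recovered reads also called 0 of 42, with 1 at an unadjusted p under 0.05 in each. The 95% intervals of the 42 log2 differences reached from -1.48 to 1.45 at their widest, so the data bound a change of each gene only within its own interval.

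Cyp1a1 was read in each F1 embryo against the low counts it has without exposure. In vehicle females it was 0.108, 0.139, 0.319, 0.536 and 0.629, and in high-dose females 0.152, 0.272, 0.713, 0.759 and 1.30. The low-dose females had 0.113 and 0.384, and the mid-dose females from 0.143 to 0.868. The groups overlapped, and the highest high-dose value, 1.30 in embryo C4219.4, was 36 reads. In vehicle males Cyp1a1 was 0, 0, 0, 0.192 and 0.325, in low-dose males 0 and 0, and in mid-dose males from 0 to 0.452. In the 8 high-dose males it was 0, 0, 0, 0.139, 0.155, 0.525, 0.539 and 1.66, where the highest was 29 reads in embryo C4219.1. The embryos at 1.30 and 1.66 carry the same animal code in their titles. Depth differed between these libraries. The vehicle males at 0.192 and 0.325 had 87240533 and 23833292 reads, and those at 0 had from 8073992 to 8868771. In the latter 1 read is 0.112 to 0.133 normalized counts, so their 0 is a coarse value. Embryos C4219.4 and C4219.1 had 32218626 and 21247642 reads, and the low-dose males 6037068 and 8830558. The mean log2 difference at the high dose was 0.38 in females (exact permutation test, p = 0.238) and 0.38 in males (exact permutation test, p = 0.336). Leaving out 1 embryo of either group gave from 0.19 (without C4219.4) to 0.56 (without C4258.2) in females. In males it gave from 0.17 (without C4219.1) to 0.50 (without vehicle embryo C3774.3). Over the 18 comparisons of a dose with vehicle in F1, F2 and F3 the difference ran from -0.33 to 0.61. The lowest p was 0.143 (exact permutation test, adjusted p = 0.629). Given the other p-values of the family, group sizes let the exact test pass the adjustment only in mid-dose and high-dose F1 males. In the remaining comparisons, all those of females included, not passing was fixed by the number of embryos and says nothing about Cyp1a1.

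Cyp1b1 was 1.08, 1.30, 1.39, 1.44 and 3.21 normalized counts in F1 vehicle females and 1.22, 1.36, 1.97, 3.25 and 3.57 in F1 high-dose females. The groups overlapped, and the high-dose fold was 1.26 (95% interval 0.740 to 2.14) in females and 1.25 (0.774 to 2.01) in males. Over the 6 F1 comparisons its log2 difference ran from -0.35 to 0.33, and it did not pass in any of them.

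Tiparp was the gene with the single unadjusted p under 0.05 in F1, in high-dose females, where 1349 of 13635 genes had one. It was 32.3, 42.3, 45.3, 63.4 and 67.1 normalized counts in vehicle females and 18.1, 29.8, 31.8, 42.6 and 44.3 in high-dose females. The values overlapped, with 3 high-dose embryos below every vehicle embryo. The log2 difference was -0.60 (-1.16 to -0.03, fold 0.661), which did not pass (limma adjusted p = 0.487). The low-dose females had 43.3 and 59.8 and the mid-dose females from 22.7 to 61.9, which overlapped the vehicle range. In males the vehicle embryos had from 14.5 to 23.2 and the high-dose embryos from 8.99 to 24.8. Over the 6 F1 comparisons Tiparp ran from -0.60 to 0.23.

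Nqo1, Ephx1, Nfe2l2, Ahr and Arnt did not pass in any F1 comparison either. Over the 6 F1 comparisons Nqo1 ran from -0.52 to 0.11, with a high-dose fold of 1.08 in females and 0.920 in males. Ephx1 ran from -0.64 to 0.61, with a high-dose fold of 1.52 (0.852 to 2.73) in females and 1.15 in males. Nfe2l2 ran from -0.24 to 0.33. Ahr ran from 0.01 to 0.24 and Arnt from -0.46 to -0.10, where the 3 doses of a sex share 1 vehicle group. The residual SD of log2 values within groups, in the fit of all 3 generations (77 degrees of freedom), was 0.408 for Tiparp, 0.461 for Nqo1, 0.628 for Cyp1b1 and 0.639 for Ephx1, and 0.404, 0.436 and 0.362 for Ahr, Arnt and Nfe2l2.

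**Figure D2:**
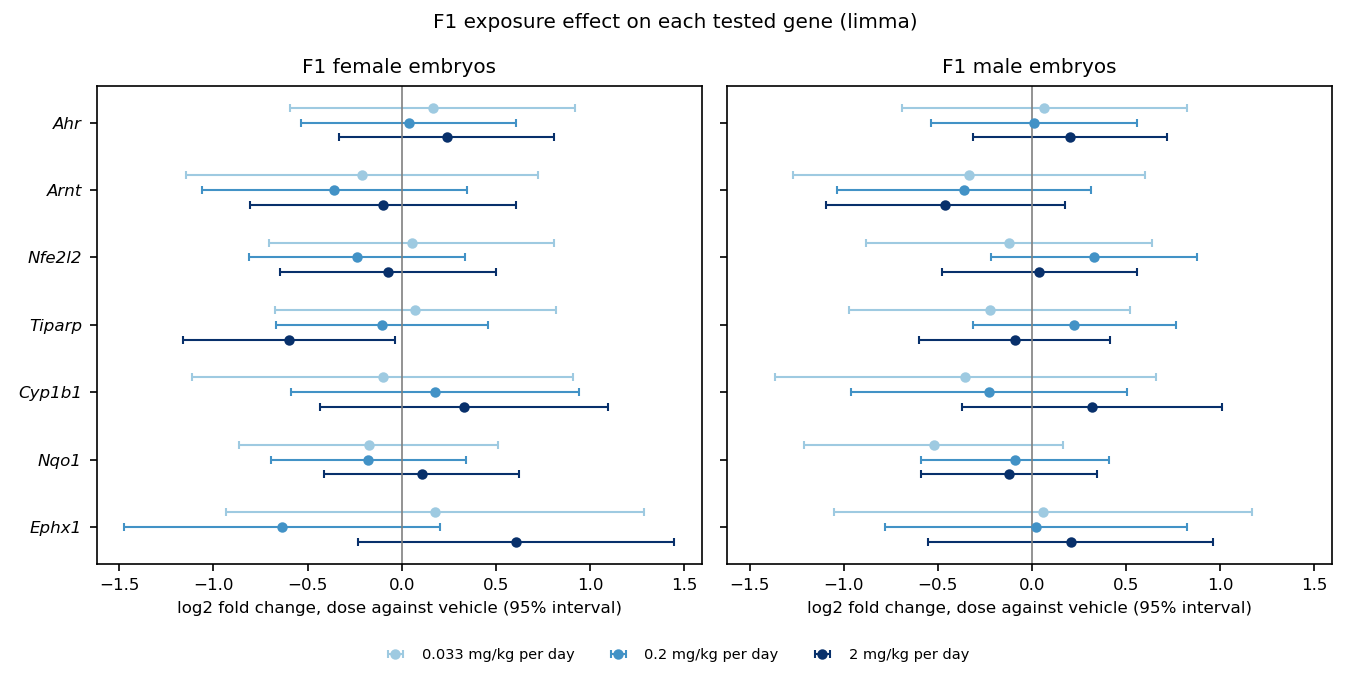
Log2 fold change against vehicle of 7 genes in F1 germ cells at the low, mid and high dose, females and males apart, with 95% intervals from limma. The intervals are wide and 1 of 42 lies wholly to one side of 0, that of Tiparp in high-dose females (-1.16 to -0.03).

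In F2, whose embryos descend from exposed dams by 1 further generation, 0 of 42 comparisons passed (0.0242% of all pairs), and 2 had an unadjusted p under 0.05 (4.22% of all pairs). edgeR's quasi-likelihood and likelihood ratio tests called 0 as well, with 3 and 2 unadjusted. The log2 differences ran from -0.86 to 0.63, with 21 above 0 and 21 below, and Arnt in high-dose females and Nqo1 in low-dose females are the 2 with an unadjusted p under 0.05, as had 603 and 444 of 13083 genes in these comparisons. The lowest was Arnt in high-dose females, with 2.71, 3.59 and 3.93 normalized counts against 4.78, 5.05, 5.89, 6.41, 6.54 and 12.6 in vehicle females. These groups did not overlap, and the log2 difference of -0.86 (-1.38 to -0.34) did not pass (limma adjusted p = 0.810). The share of all genes that separate in this way was not computed for any group of F2, so such separation does not single out a gene. In high-dose F2 females the macrophage markers C1qc (-2.02) and C1qb (-1.88) were lower without passing. They were picked from the marker lists for a small unadjusted limma p, and the other genes of the lists are not given. The highest of the 42 was Nqo1 in low-dose females, with 11.8, 20.6 and 22.1 and a log2 difference of 0.63 (limma adjusted p = 1). In those females the markers Hba-a2 (6.51) and Dcn (1.63) were higher and Rspo1 (-1.17) was lower, without passing. They were picked in the same way, so they do not describe their lists. Ahr in mid-dose females was 6.0, 6.30 and 6.74, above all 6 vehicle females (3.72 to 5.07), and its log2 difference of 0.51 did not pass (limma adjusted p = 1).

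In F3 again 0 of 42 passed (0% of all pairs), and 4 had an unadjusted p under 0.05 (7.78% of all pairs). The edgeR tests called 0 each, with 3 and 4 unadjusted. The log2 differences ran from -0.74 to 1.09, with 18 above 0 and 24 below. The 4 were Arnt in high-dose females, where 2018 of 13139 genes had such a p, Arnt and Ephx1 in mid-dose females (1677 genes) and Arnt in low-dose males (402 genes). Arnt in high-dose females was 3.38, 4.12, 4.21 and 4.49 normalized counts against 4.52, 5.23, 7.70, 8.09, 8.61 and 9.76 in vehicle females. All 4 lay below every vehicle embryo, and the log2 difference of -0.74 did not pass (limma adjusted p = 0.243). The 2 mid-dose females had 8.98 and 13.4, a difference the other way of 0.60 (limma adjusted p = 0.371), and Arnt in low-dose males differed by -0.45 (limma adjusted p = 0.970). Ephx1 in the 2 mid-dose females was 3.17 and 4.04, above all 6 vehicle females (0.998 to 2.70), a log2 difference of 1.09 (limma adjusted p = 0.383). The share of all genes that separate from vehicle was not computed in F3 either, so the separations of Arnt and Ephx1 do not single them out.

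**Figure D3:**
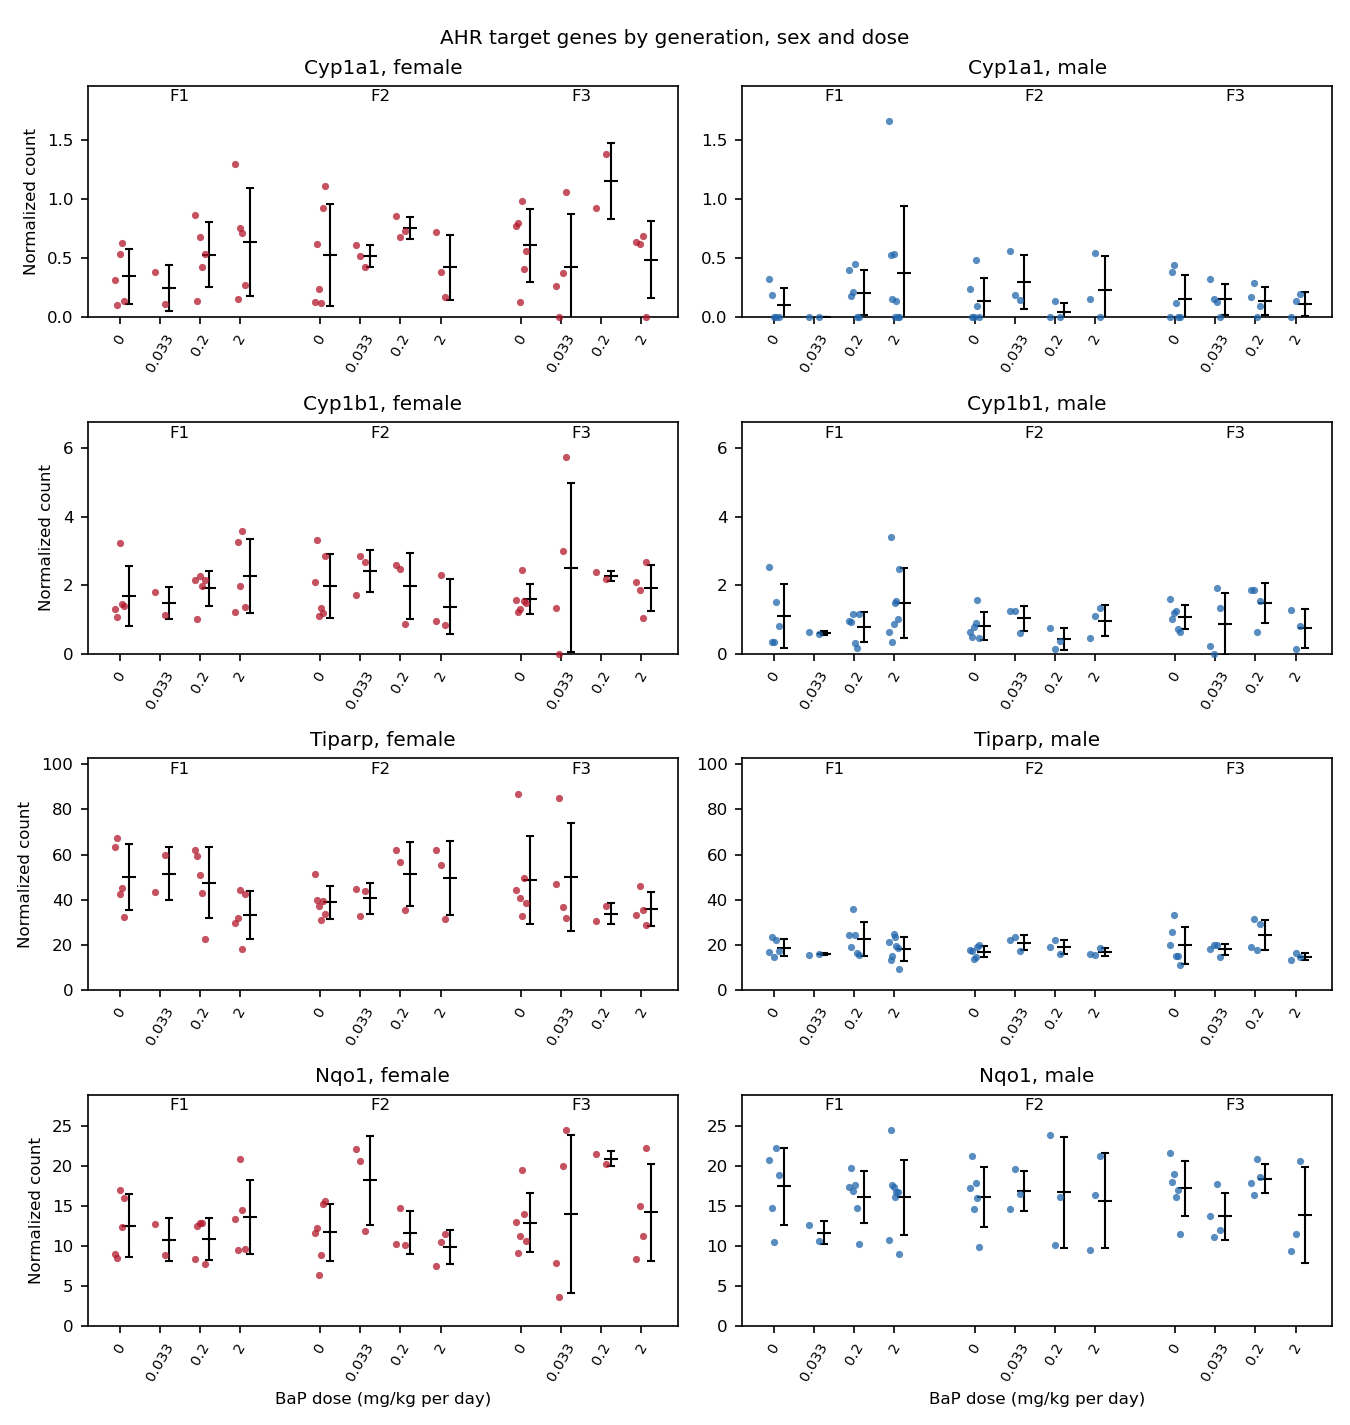
Normalized counts of Cyp1a1, Cyp1b1, Tiparp and Nqo1 by generation, sex and F0 dose (0, 0.033, 0.2 and 2 mg/kg-day), with a point per embryo and bars for mean ± SD. Dose groups of these 4 genes overlap the vehicle groups except for Nqo1 in the 2 F3 mid-dose females (20.2 and 21.5 against at most 19.5), which did not pass. The share of all genes that separate there was not computed.

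Over the 3 generations together, each dose and all doses were compared with vehicle in each sex. Of 56 comparisons 0 passed (0% of all pairs), and 1 had an unadjusted p under 0.05 (5.23% of all pairs). That was Arnt in high-dose females, a comparison in which 2672 of 13288 genes had such a p, with a log2 difference of -0.57 (-0.90 to -0.23, fold 0.675, limma adjusted p = 0.122). Both edgeR tests called 0 of 56 with the same 1 unadjusted, at -0.67, with adjusted p-values of 0.208 for quasi-likelihood and 0.146 for the likelihood ratio. In F1 the values of Arnt overlapped, with 4.26, 5.23, 5.47, 6.12 and 6.52 in high-dose females against 3.02, 5.28, 5.396, 7.28 and 11.0 in vehicle females, a log2 difference of -0.10.

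Whether the effect of exposure differed between the sexes was tested within each generation, and 0 of 21 tests passed (0% of all pairs), with 0 at an unadjusted p under 0.05 (2.13% of all pairs). Whether it differed between F1 and F3 was tested in each sex, and 0 of 14 passed (0% of all pairs), with 0 at an unadjusted p under 0.05 (2.86% of all pairs). The authors dosed F0 dams for longer in the F2 and F3 lineages than for F1 embryos, so generation and length of dosing cannot be told apart. Both edgeR tests on recovered reads also called 0 of 21 and 0 of 14, with 0 at an unadjusted p under 0.05 in each.

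Genes around the receptor were read as lists, beside all 13288 genes tested, of which 3702 were higher and 3824 lower in males with a median log2 difference of 0. The AHR complex list, of chaperones and the kinase gene Src, has 5 genes with 4 tested, and 1 was lower in males, Hsp90aa1 (-0.17, limma adjusted p = 0.0371), which is its most abundant gene. Of 12 relatives of Arnt in the bHLH-PAS family 9 were in the table and 6 were tested. Hif1a was the most abundant, 2 were higher and 2 lower in males, with a median of -0.13, and those that differed were Epas1 (2.24, limma adjusted p = 1.02e-18), Arntl (0.35), Clock (-0.93) and Arnt2 (-1.07). Epas1 (mean normalized count of 0.487 in vehicle females and 4.33 in males) and Arnt2 (1.56 and 0.449) were below 0.5 in the sex where they were low, and passed the filter through the other. Of 13 other genes known to respond to the receptor, 11 were in the table and 4 were tested, which were higher in males. They were Gsta2 (2.40), Gsta1 (1.53), Slc7a5 (0.98), the most abundant, and Cyp2s1 (0.58). Part of them passed the filter through males, since Gsta1 (mean normalized count of 0.250 in vehicle females and 1.96 in males), Gsta2 (0.319 and 4.46) and Cyp2s1 (0.242 and 0.697) were below 0.5 in females. The 7 genes in the table that missed the filter were not tested. Among them Aldh3a1 (0.388 and 0.0953) and Ido1 (0.211 and 0.0400) had the larger mean in females, and Ugt1a1, Ugt1a2, Ugt1a6a, Ugt1a6b and Ugt1a7c had the larger mean in males, from 0.178 to 0.208 in females and from 0.194 to 0.277 in males. The median of the 4 tested genes, 1.25, covers those genes alone. Gsta1 and Gsta2 share much of their sequence, so the split of reads between them is uncertain.

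Among enzymes of BaP oxidation other than Ephx1 and the CYP1 genes, 3 were higher and 3 lower in males of 11 tested (19 listed, 14 in the table), with a median of 0.08. Of the other epoxide hydrolases, Ephx4 (-1.32) and Ephx2 (-1.24) were lower in males. Ephx3 was higher (1.38), but it had no read in 14 of 17 vehicle females and passed the filter through males alone, so its log2 value rests on the pseudocount. Ptgs1 was higher (0.96) and also passed the filter through males, at a mean of 0.176 in females and 0.930 in males, so 2 of the 3 higher genes depend on the filter. The most abundant gene was Cyb5b. Of 8 genes of conjugation and efflux tested (11 listed, 10 in the table), 2 were higher and 3 lower, with a median of -0.01. They included Abcc1 (0.65), Abcc4 (0.45), Abcc2 (-1.17) and the most abundant, Abcg2 (-0.54). Of the 9 partners of NRF2 tested, 1 was higher, Mafk (0.48), and 2 were lower, Nfe2l3 (-1.50) and Maff (-1.28), with a median of -0.02, and the most abundant was Rbx1. Nfe2l3 passed the filter through females, at a mean of 1.88 in females and 0.344 in males. Of 19 NRF2 targets other than Nqo1, 18 were tested, of which 2 were higher and 8 lower in males, with a median of -0.24, while Nqo1 itself was higher. They included Me1 (1.32), Blvrb (-1.26), Srxn1 (-0.97) and Gclc (-0.64), and the most abundant was Ftl1 (0.50).

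After exposure, 0 pairs of a gene in these lists and a comparison passed limma's test in F1, F2 or F3 or over all generations. In F1, at an unadjusted p under 0.05 there were 1 of 30 pairs for the AHR complex, 0 of 42 for the relatives of Arnt, 2 of 42 for the other genes responding to the receptor and 5 of 66 for BaP oxidation. There were 2 of 48 for conjugation and efflux, 1 of 54 for the partners of NRF2 and 4 of 108 for its targets, beside 3.37% of all pairs. In F2 the 7 lists had between 0% and 5.56% of their pairs there (4.22% of all pairs). In F3 the other genes responding to the receptor had 4 of 24 (16.7%) and the remaining lists 0% to 10% (7.78% of all pairs). Of those 4, Slc7a5 (1.15) was higher in mid-dose females, and the median log2 difference over all 24 pairs was 0.325. Gsta2 (-1.68) and Gsta1 (-1.36), which share sequence, were both lower in mid-dose males. The markers Ptgds (-1.73), Amh (-1.12) and Dcn (-2.34) were lower and Kit (0.87) was higher in that comparison, without passing. They were picked from the marker lists for a small unadjusted limma p, and the other genes of the lists are not given. Over all generations the other genes responding to the receptor had 5 of 32 (15.6%), among them Gsta1 (0.90), higher in low-dose males. The remaining lists had 0% to 6.94% (5.23% of all pairs).

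**Figure D4:**
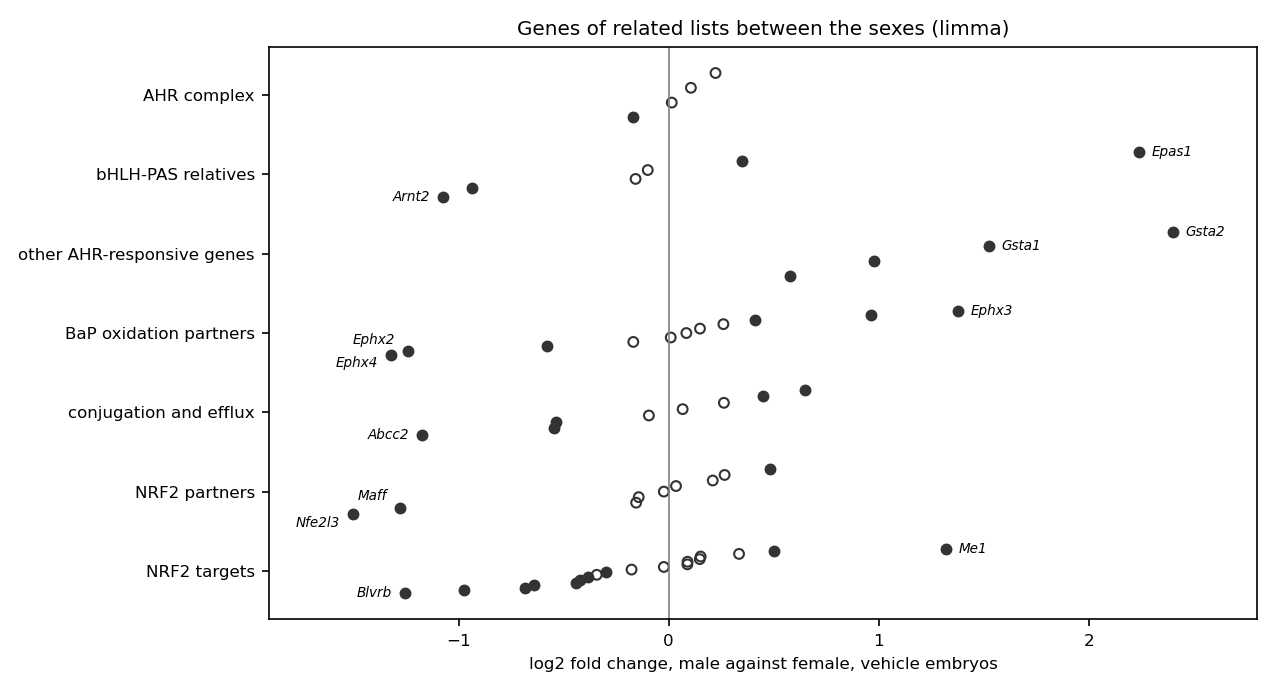
Log2 fold change of male against female vehicle embryos for the tested genes of 7 lists around the receptor and NRF2, where filled points had a limma adjusted p under 0.05 and open points did not. Of 18 NRF2 targets 2 are higher and 8 lower in males, beside 27.9% and 28.8% of all genes tested.

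Genes whose values moved most like those of Ahr, Arnt, Cyp1b1, Tiparp, Nqo1 and Nfe2l2 between embryos were sought over all 48 female and 53 male embryos, after the mean of each of the 24 groups was removed, among 8485 genes. For Tiparp they were Rabgap1 (r = 0.776), Chuk (0.752) and Zfp191 (0.747), and for Nfe2l2 Tspan3 (0.787), D19Ertd386e (0.779) and Cct6a (0.756). For Arnt they were Slc35a4 (0.756), Ints7 (0.743) and Immt (0.736), and for Nqo1 Scpep1 (0.735), Enpp3 (0.717) and Utp15 (0.715). For Cyp1b1 they were Slc25a13 (0.668), Umodl1 (0.657) and 1700019D03Rik (0.656), and for Ahr Syde2 (0.608), Ptp4a2 (0.592) and Itgav (0.577). Among pairs of the 7 genes the highest were Arnt with Nfe2l2 (0.608), Cyp1b1 with Ephx1 (0.510) and Cyp1b1 with Nqo1 (0.498). Ahr had between -0.104 and 0.232 with each of the other 6. These are descriptions without a test.

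Relations of the 7 genes with the 8 summed marker lists were tested in 48 females and in 53 males, 112 relations in all, by permutation tests. Group means were not removed here, and embryos were permuted over generations, doses and animal codes. Differences between groups and likeness of embryos of 1 code therefore enter these r, rho and p-values, which may be too small. The share of all genes that relate to each sum was not computed, so the counts below do not single out these 7 genes. A relation passed by both if the adjusted p was under 0.05 for Pearson's r and for Spearman's rho. For Sertoli, stroma and mesonephros, macrophage, pregranulosa and erythroid markers 0 of the 7 genes passed by both in either sex. For the endothelial list, which is nearly all Pecam1, 6 genes passed by both in females and 4 in males. In females Tiparp was negative (r = -0.466, rho = -0.431), and Arnt, Cyp1b1, Ephx1, Nfe2l2 and Nqo1 were positive. Nqo1 in females had r = 0.735 and Spearman's rho = 0.739, each with a permutation p of 1e-05, the smallest that 100000 permutations can give (adjusted p = 0.00028 and 0.000373). Without the 2 embryos farthest from the median r was 0.736, and within F1, F2 and F3 it was 0.671, 0.798 and 0.76. For germ cell markers 3 genes passed by both in females and 2 in males. Tiparp in females had r = -0.593 (permutation p = 3e-05, adjusted p = 0.00056) and rho = -0.472 (permutation p = 0.00072, adjusted p = 0.00896). Its r was -0.453 without the 2 farthest embryos, and -0.813, -0.0975 and -0.563 within F1, F2 and F3. Arnt in females had r = -0.482 (permutation p = 0.00048, adjusted p = 0.00448) and rho = -0.415 (permutation p = 0.00373, adjusted p = 0.0232). Its r was -0.484 without the 2 farthest embryos, and -0.239, -0.678 and -0.598 within F1, F2 and F3. In males Arnt had r = -0.603 and rho = -0.657, each with a permutation p of 1e-05, the smallest possible (adjusted p = 0.00028 and 0.000373). That r was -0.593 without the 2 farthest embryos, and -0.544, -0.564 and -0.761 within F1, F2 and F3. The third gene that passed in females was Ahr, in the opposite direction. It had r = 0.413 (permutation p = 0.00339, adjusted p = 0.0211) and rho = 0.441 (permutation p = 0.00194, adjusted p = 0.0166). Its r was 0.337 without the 2 farthest embryos, and 0.447, 0.0416 and 0.495 within F1, F2 and F3. The other gene that passed in males was Nfe2l2, with r = -0.55 and rho = -0.564 (permutation tests, adjusted p = 0.00096 and 0.00056). The germ cell sums had medians of 7501, 6923 and 7385 in high-dose females of F1, F2 and F3 against 6165, 5687 and 5463 in vehicle females. Dppa5a (0.65) and Dppa3 (0.47) had positive log2 differences in high-dose females over all generations, which did not pass. Relations with single germ cell markers were not computed, so those of Tiparp and Arnt are with a sum in which these genes weigh most. Whether the difference of Arnt at the high dose holds at equal marker sums was not tested. For fetal Leydig markers 3 genes passed by both in females and 0 in males. They were Cyp1b1 (r = 0.507, rho = 0.514), Tiparp (r = -0.455, rho = -0.435) and Nqo1 (r = 0.427, rho = 0.435).

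The sites at which the receptor pair and NRF2 bind were searched in promoters, 250 bases before to 50 after the gene start in RefSeq, on both strands. The gene positions given above are from GENCODE, whose outermost starts of Cyp1a1 (57687928) and Ephx1 (181020904) lie outside the RefSeq windows searched. A window was available for 8 of the 9 genes, and for Ahr none was. The full element TNGCGTG was in 1664 of 32851 windows (5.07%), and of the 8 genes Ahrr alone had it. The core GCGTG, chosen after the full element had been counted, was in 10639 windows (32.4%). Arnt, Cyp1a1, Cyp1b1 and Tiparp had 1 each and Ahrr had 3. The antioxidant response element TGACNNNGC was in 4071 windows (12.4%), and Arnt had 2 and Nfe2l2 had 1. Nqo1 and Ephx1 had none of these sites in the window. Elements farther from the start were not searched.

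The windows of 4 of these genes are given 5′ to 3′ on the strand of the gene, with GCGTG and TGACNNNGC on either strand in capitals. That of Tiparp, on chromosome 3 from 65528197 to 65528496, is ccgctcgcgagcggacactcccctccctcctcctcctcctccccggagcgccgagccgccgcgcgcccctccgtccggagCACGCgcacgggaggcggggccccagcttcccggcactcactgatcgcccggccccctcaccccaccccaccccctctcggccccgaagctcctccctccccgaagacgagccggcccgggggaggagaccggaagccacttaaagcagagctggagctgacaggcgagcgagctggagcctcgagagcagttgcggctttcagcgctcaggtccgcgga. That of Cyp1b1, on chromosome 17 from 79715012 to 79715311, is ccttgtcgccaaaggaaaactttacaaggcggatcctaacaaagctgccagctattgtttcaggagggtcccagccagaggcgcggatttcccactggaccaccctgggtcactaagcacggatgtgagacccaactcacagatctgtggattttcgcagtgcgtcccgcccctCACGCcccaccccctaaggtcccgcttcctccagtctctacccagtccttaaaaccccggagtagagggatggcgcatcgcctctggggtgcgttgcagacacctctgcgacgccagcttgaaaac. That of Cyp1a1, on chromosome 9 from 57697363 to 57697662, is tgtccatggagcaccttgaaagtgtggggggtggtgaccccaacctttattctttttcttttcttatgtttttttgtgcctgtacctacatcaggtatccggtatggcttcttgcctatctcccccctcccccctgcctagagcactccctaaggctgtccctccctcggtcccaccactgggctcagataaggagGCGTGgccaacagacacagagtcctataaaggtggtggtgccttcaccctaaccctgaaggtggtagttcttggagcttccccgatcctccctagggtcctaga. That of Nfe2l2, on chromosome 2 from 75704614 to 75704913, is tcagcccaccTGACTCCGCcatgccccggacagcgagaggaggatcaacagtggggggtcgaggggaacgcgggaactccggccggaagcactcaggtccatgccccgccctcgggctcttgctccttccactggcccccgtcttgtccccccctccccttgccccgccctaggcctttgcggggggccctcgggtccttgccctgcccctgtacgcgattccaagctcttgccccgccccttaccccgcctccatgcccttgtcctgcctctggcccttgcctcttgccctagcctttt.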

How the data were processed

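RNA-seq values of 101 embryos were taken from the table of normalized counts. The authors made cDNA from sorted cells with oligo(dT) and used Trim Galore for trimming, STAR for alignment to GRCm38 and Rsubread for counts on exons. The deposited values are a signal, gene counts that the authors normalized by TMM in edgeR. The values of 99 libraries are whole multiples of 1 step per library, with 100% of values within 0.05 of a whole read, and their reads were recovered. F3 male high D4190.1 and F3 female vehicle D1388.3 were not, and were left out of edgeR tests only. Column sums ran from 758171 to 1594837 normalized counts. In 184 pairs of libraries of 1 group checked for copies, chi-square per degree of freedom was at least 5.44.

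Analyses used Python 3.11.15 with numpy 2.4.6, scipy 1.17.1, pandas 2.3.3 and matplotlib 3.10.9, and R 4.3.3 with limma 3.58.1, edgeR 4.0.16 and statmod 1.5.0. The main test was limma with empirical Bayes moderation and trend on log2(normalized count + 0.5), two-sided, with Benjamini-Hochberg adjustment over all genes at 0.05. Genes with a mean of at least 0.5 in the fit were tested. A fit of 24 generation, sex and dose groups covered 13288 genes, and fits of 8 groups tested 13635 (F1), 13083 (F2) and 13139 (F3) genes. Cyp1a1 was tested on the same scale by permutation of embryos, exact within a generation and with 100000 resamples for all vehicle embryos, adjusted over its 22 tests. Relations with marker sums used 100000 permutations of embryos within a sex, without removal of group means. Levels per kb divide by the exon bases of GENCODE release M21, and promoter windows are from RefSeq on GRCm38. The methods were tested on simulated data.

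Genes named are the 9 members, up to 4 passing genes with the smallest p per list and comparison, the most abundant gene of each list, and the 3 genes most correlated with each of Ahr, Arnt, Cyp1b1, Tiparp, Nqo1 and Nfe2l2. Dppa3, Nanos3, Pou5f1, Dazl, Ddx4, Kit, Sall4, Ptgds, Gata4, Sox9, Amh, Dcn, C1qc, Src, Aldh3a1, Ido1 and the Ugt1a genes were named after their values were seen. The members and lists were chosen with earlier results of these data known. Hba-a1 and Hba-a2 had nearly identical values, with equal vehicle means (7.17 in females and 212 in males), and were counted once.

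Alternatives were upper quartile scaling, omission of the filter, a stricter minimum mean (5), other pseudocounts (0.1 and 1), edgeR quasi-likelihood and likelihood ratio tests on recovered reads, a block for the animal code in the titles, averages of embryos of one sex with the same code, fits of the compared groups alone, vehicle groups alone, single generations, generation and sex-by-exposure terms, F1 without libraries of 20000000 reads or more, depth class as a term, and leaving out each embryo. Leaving out libraries with summed stroma and mesonephros markers above 20 or erythroid markers above 100, the core motif and the relations with markers were added after the data were seen. P-values treat embryos as units, and the animal codes in the titles, 56 in all, were taken as litters, which the labels do not state.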

Additional observations from a re-analysis of the deposited data

Results flagged for a closer look

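In groups of 4 to 10 embryos, the highest or lowest embryo was set apart by Dixon's gap test at 95% in 11 of 112 gene and group sets. Its rate by chance, about 1 in 20, holds for independent sets of normally distributed values. These are untransformed counts of genes in the same embryos, so the 11 cannot be set against that rate. All values are normalized counts, and why these embryos lie apart was not tested.

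Ahr was 7.61 in F3 male vehicle D3402.3, where the next embryo had 4.06, and the same embryo was lowest for Ephx1, at 1.46 with the next at 3.20. Arnt was 12.6 in F2 female vehicle D3133.2, with the next at 6.54. Cyp1a1 was 1.66 in F1 male high C4219.1, with the next at 0.539, and 0 in F3 female high E0103.2, with the next at 0.623. The same F3 female was highest for Ephx1, at 4.37 with the next at 1.40.

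Cyp1b1 was 3.21 in F1 female vehicle C4605.2 (next 1.44), 2.45 in F3 female vehicle D3526.1 (next 1.55) and 0.998, the lowest, in F1 female mid C4242.1 (next 1.97). Tiparp was 87.0 in F3 female vehicle D1388.3 (next 49.4), a library whose reads were not recovered. Ephx1 was 9.22 in F1 male mid D1190.1 (next 2.49).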

How the results depend on the processing

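The count of genes that differed between sexes was 6 of 7. It was 3 with a minimum mean of 5, under which 4 genes were tested, and 1, 2 and 1 with F1, F2 and F3 vehicle embryos alone, which have fewer embryos. It was 7 without a filter, 5 without libraries high in erythroid markers, and 6 under the other alternatives tried over all generations. Over the alternatives that keep all 3 generations, Tiparp ran from -1.32 to -1.22 and passed in 12 of 12, Nfe2l2 from -0.46 to -0.40 and Nqo1 from 0.39 to 0.48 in 12 of 12 (highest adjusted p of Nqo1 0.0476), Cyp1b1 from -0.86 to -0.48 and Ephx1 from 0.60 to 0.95 in 11 of 11. Ahr ran from -0.53 to -0.26 and passed in 10 of 11. Arnt ran from -0.08 to 0.08 and passed in 0 of 12. In single generations Tiparp ran from -1.37 to -1.17 and Nfe2l2 from -0.72 to -0.18, and Nfe2l2, Nqo1, Ephx1 and Ahr passed in none.

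Exposure counts were 0 under every alternative tried in F1, F2, F3 and over all generations. Leaving out each embryo gave 0 to 0 in 38, 30 and 33 refits of F1, F2 and F3, with lowest adjusted p-values of 0.278, 0.477 and 0.0947. The last was Arnt in F3 high-dose females without D4190.2. Arnt in high-dose females had an adjusted p of 0.0811 with generation and sex-by-exposure terms. The F1 values of Cyp1a1 did not pass with either other pseudocount or when 1 embryo was left out, where the low-dose groups of 2 were not reduced. In females, in low-dose males and in mid-dose males with 1 embryo left out, they could not pass. There the group sizes keep the exact test from passing, given the other p-values of its family. Of 2124 F1 values of the other genes not called in either setting, 64 changed sign. Upper quartile scaling moved the median of all genes in F1 high-dose females to 0.11.

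Embryos of 1 code correlated more than others, with a median r of 0.288 over 43 pairs, against -0.0129 over 1432 other pairs, so p-values that treat embryos as units may be too small or too large. The block correlation was 0.257 over all generations, and 0.3825, 0.0532 and 0.225 in the fits of F1, F2 and F3. Depth limits Cyp1a1, and small dose groups of 2 to 4 embryos limit F2, F3 and the low dose of F1. Only mRNA of sorted cells at 1 age was measured, so enzyme activity and response soon after a dose are not covered.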
